A study of Homo sapiens with 6 samples.

Results

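The Wnt ligands, receptors and feedback genes of SH-SY5Y cells are described here in cells depleted of CSA or CSB. SH-SY5Y is a human neuroblastoma line. The members are the protein-coding genes whose symbols belong to the WNT, FZD, SFRP, DKK (with DKKL1) and RSPO families, LGR4 to LGR6, TCF7 with TCF7L1 and TCF7L2, LEF1, AXIN1 and AXIN2, LRP5 and LRP6, NKD1 and NKD2, RNF43 and ZNRF3. Positions given for genes are those of the authors' tables on hg38. The members numbered 52 of the 32575 genes listed, of which 16555 were protein-coding. By role they were 16 Wnt ligands, 2 R-spondins, 9 secreted antagonists, 10 Frizzled receptors, 2 LRP co-receptors, 3 LGR receptors of R-spondins, 6 intracellular or membrane feedback inhibitors and 4 TCF/LEF transcription factors.

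Wnt proteins are secreted lipid-modified ligands that bind a Frizzled receptor and, in the beta-catenin branch of the pathway, an LRP co-receptor. Binding stops the Axin-containing complex from marking beta-catenin for destruction, and beta-catenin then works with TCF/LEF factors on target genes, some of which encode inhibitors of the pathway itself. Other Wnts act through Frizzled receptors on cell polarity and movement without beta-catenin. In the embryo the pathway takes part in the induction of the neural crest, the lineage from which neuroblastoma arises.

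There were 3 groups of 2 libraries each, and all cells had been transduced with a lentiviral short hairpin RNA, selected with puromycin and grown for 2 to 3 weeks. The control group carried a control hairpin and its genotype is labelled WT, the CSA group carried a hairpin against CSA (gene ERCC8) and is labelled CSAmut, and the CSB group carried a hairpin against CSB (gene ERCC6) and is labelled CSBmut. Both proteins act in transcription-coupled repair, and the study set out to find the genes that each of them regulates in this line. The cells are called knockdowns here because the protocols describe hairpins. The sources used here do not say if both libraries of a group share 1 transduction or how many hairpins were used. The p-values thus reflect only the variation among these 6 libraries, part of which may be technical.

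The libraries held 19368272 to 26758162 reads assigned to genes. Levels are in scaled counts, that is reads per gene divided by 1 size factor per library. ERCC8 held 219 and 217 scaled counts in control, 61.8 and 57.2 with the CSA hairpin, and 186 and 215 with the CSB hairpin. ERCC6 held 615 and 593 scaled counts in control, 618 and 611 with the CSA hairpin, and 258 and 302 with the CSB hairpin. Each target was low in its own knockdown. Genes were compared with limma on log2(scaled count + 1) over all 6 libraries, and a gene rose or fell where its Benjamini-Hochberg adjusted p over all 28388 genes tested was below 0.05. Each log2 fold change is on that scale and carries its standard error, with 2 libraries in each group. The 12 markers of noradrenergic neuroblasts, the cell state known for this line, summed to 116747 to 119982 scaled counts in control, 136274 to 140683 in the CSA knockdown and 103065 to 103526 in the CSB knockdown. TH, the first enzyme of catecholamine synthesis, was the scarcest of them, with 2.86 to 20.3 scaled counts.

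More members fell than rose after CSA knockdown, and more rose than fell after CSB knockdown. After CSA knockdown 2 of the 48 members tested rose and 15 fell, where 8.37% of all genes tested rose and 10.4% fell. After CSB knockdown 20 members rose and 2 fell, where 14.8% of all genes tested rose and 8.86% fell. In CSB against CSA knockdown 24 members were higher and 2 lower, against 18.1% and 11.3% of all genes. The median log2 fold change of the members tested was -0.24, 0.30 and 0.51 in these comparisons in turn, and that of all genes tested was 0.00, 0.10 and 0.09. The comparisons with control share the control libraries, and the comparison of the knockdowns is the difference of the other two.

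Because well-covered genes are called more often, the counts were also taken among the 34 members with a mean of at least 20 scaled counts in a group. Of these, 2 rose and 14 fell after CSA knockdown (47.1%), against 14.0% and 17.5% of all genes of that level (31.5%). After CSB knockdown 20 rose and 2 fell (64.7%), against 24.6% and 14.9% (39.5%). Between the knockdowns 22 were higher and 2 lower (70.6%), against 29.2% and 18.5% (47.8%). NKD2, among the 22, reached a mean of 20 only in the CSB knockdown, so its place in this set is not independent of its call. All genes of that level were picked by the same rule. After CSB knockdown the split of 20 rising and 2 falling members became 17 and 5 with DESeq2's size factors as the scaling, 19 and 6 with edgeR and TMM on recovered reads (FZD4, FZD5, LRP6 and AXIN2 being added to FZD3 and FZD6), and 21 and 5 with edgeR and upper quartile scaling. The full DESeq2 fit on recovered reads gave 14 rising and 3 falling. Leaving out 1 library at a time left 5 to 11 members falling after CSA knockdown and 6 to 17 rising after CSB knockdown. The same omissions took the calls among all genes from 5334 to between 1126 and 3306 for CSA, and from 6706 to between 1773 and 5961 for CSB.

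Among the markers of other cells, the mesenchymal sum and the much lower Schwann sum moved in the same directions as most members called. The endothelial sum also fell after CSA knockdown, and the epithelial sum moved slightly the other way. The 12 markers of mesenchymal or substrate-adherent cells, a second cell form known in neuroblastoma lines, summed to 32095 to 33297 scaled counts in control, 18337 to 18664 in the CSA knockdown and 64133 to 65622 in the CSB knockdown. After CSA knockdown 8 of them fell, and after CSB knockdown 9 rose and 1, YAP1, fell. None was at 0, and the scarcest, PRRX1, had group means of 4.85, 4.14 and 9.08 scaled counts. Among the noradrenergic markers 5 rose and 4 fell after CSA knockdown, and 3 rose and 5 fell after CSB knockdown. Of all genes with a mean of at least 20, 14.0% rose and 17.5% fell after CSA knockdown, and 24.6% rose and 14.9% fell after CSB knockdown. The markers' part in the members' counts was not tested. Bulk libraries do not tell fewer cells of a type from less RNA per cell. Leukocyte markers summed to at most 3.86 scaled counts. Schwann markers summed to 123 to 124 in control, 113 to 116 in the CSA knockdown and 127 to 151 in the CSB knockdown. Of the 5 Schwann markers tested, 1 fell after CSA knockdown and 0 were called after CSB knockdown. Endothelial markers summed to 37.6 to 45.8 in control, 21.7 to 27.7 in the CSA knockdown and 37.1 to 38.5 in the CSB knockdown. Of the 4 endothelial markers tested, 2 fell after CSA knockdown and 0 were called after CSB knockdown. Epithelial markers summed to 309 to 315 in control, 320 to 322 in the CSA knockdown and 285 to 297 in the CSB knockdown. All 6 leukocyte markers, and PECAM1, CDH5 and TEK of the endothelial list, were at or near 0, and SOX10 of the Schwann list was not among the genes listed.

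**Figure D1:**
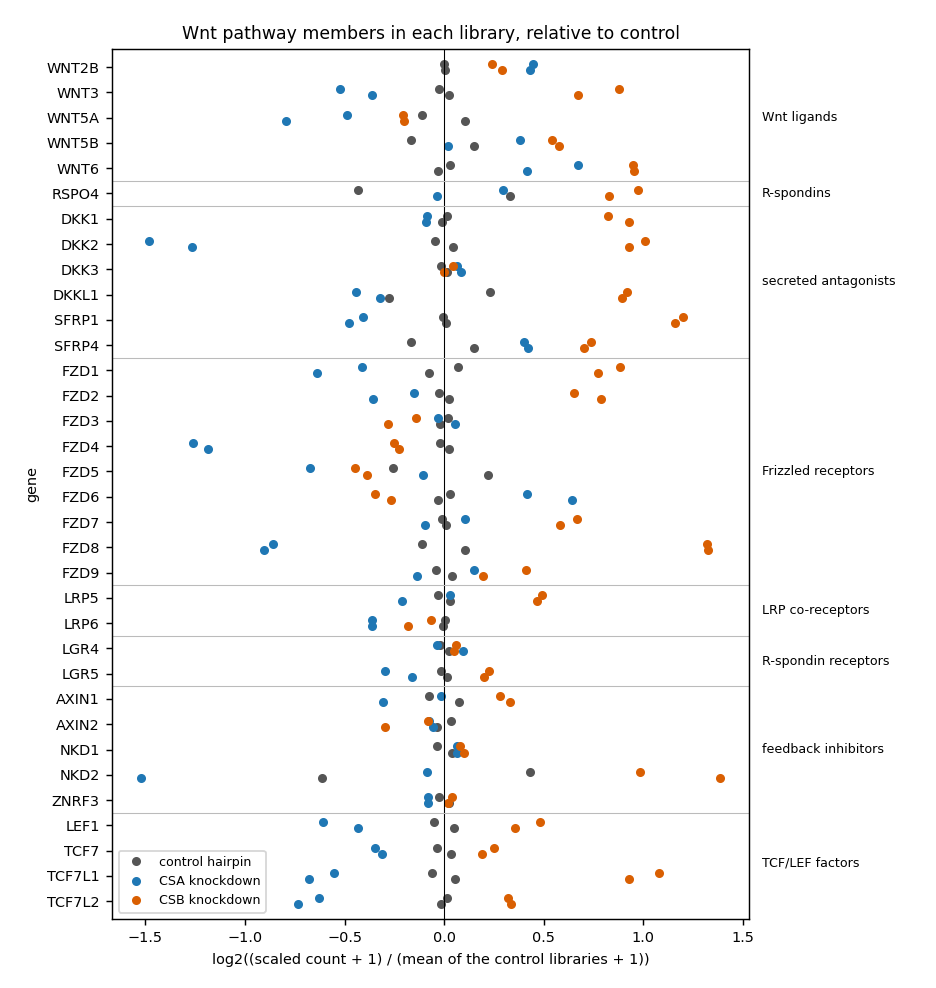
Each point is 1 library, and the horizontal axis is the log2 ratio of its scaled count (plus 1) to the mean of the 2 control libraries (plus 1), for the 34 members with a mean of at least 20 scaled counts in a group, arranged by role. CSB knockdown libraries lie to the right of both controls for all 4 TCF/LEF factors and for DKK1, DKK2, SFRP1 and FZD8, CSA knockdown libraries lie to the left for most of these, and NKD1, ZNRF3, LGR4 and DKK3 lie near 0.

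Among the ligands, WNT6 rose in both knockdowns and more after CSB knockdown, whereas WNT3 fell after CSA knockdown and rose after CSB knockdown. Of the 13 ligands tested, 1 rose and 3 fell after CSA knockdown, and 3 rose after CSB knockdown. The ligands' shares called, 30.8% and 23.1%, stand beside 18.8% and 23.6% of all genes tested, so the CSB count in either direction was near the background. The 3 CSB calls were all rises, where 14.8% of all genes tested rose and 24.6% of those with a mean of at least 20. Most ligands were at the edge of detection, where depth limits calls. WNT6 (chr2:218859821-218874233, plus strand) had 449 and 469 scaled counts in control, 612 and 731 with the CSA hairpin, and 889 and 884 with the CSB hairpin. The 6 libraries formed 3 separate pairs, with control lowest and the CSB knockdown highest. The rises were 0.54 ± 0.08 (adjusted p = 0.000519) for CSA and 0.95 ± 0.08 (adjusted p = 5.94e-06) for CSB, and the knockdowns also differed from each other (log2 difference 0.41 ± 0.08, adjusted p = 0.00232). WNT3, a ligand of the beta-catenin branch, had 249.7 and 241 scaled counts in control, 191 and 171 with the CSA hairpin, and 391 and 451 with the CSB hairpin. Its CSA libraries lay below and its CSB libraries above both controls (CSA -0.44 ± 0.10, adjusted p = 0.00869, CSB 0.77 ± 0.10, adjusted p = 0.000141, CSB against CSA 1.21 ± 0.10, adjusted p = 1.77e-06).

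WNT5A, a ligand best known for signalling without beta-catenin, had 170.1 and 147 scaled counts in control, 91 and 113 with the CSA hairpin, and 138 and 137 with the CSB hairpin. It fell after CSA knockdown (-0.64 ± 0.14, adjusted p = 0.00709) and was higher in the CSB than in the CSA knockdown (0.44 ± 0.14, adjusted p = 0.0352). Both CSB libraries lay just below control (-0.20 ± 0.14, adjusted p = 0.367). WNT5B, its close paralog, had 186 and 149.5 scaled counts in control, 170.2 and 218 with the CSA hairpin, and 251 and 244 with the CSB hairpin. Both CSB libraries were above both controls and WNT5B rose after CSB knockdown (0.57 ± 0.14, adjusted p = 0.00972), whereas its CSA libraries overlapped the control range (0.21 ± 0.14, adjusted p = 0.356). WNT2B had 75.6 and 75.2 scaled counts in control, 102 and 103 with the CSA hairpin, and 92.5 and 89.1 with the CSB hairpin. It passed limma's threshold in no comparison, with log2 fold changes of 0.44 ± 0.14 (adjusted p = 0.0558) for CSA and 0.26 ± 0.14 (adjusted p = 0.23) for CSB. edgeR with TMM called it higher after CSA knockdown (log2 fold change 0.46, adjusted p = 0.0388). Its exons overlap those of ST7L on the other strand, which had more reads, and the strand setting of the counting is not stated, so its level is uncertain.

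All of these ligand calls except the WNT3 difference between the knockdowns ended when 1 library was left out. In most cases this included a library outside the contrast. The fold changes of these calls kept their sign under every alternative tried. The WNT6 call for CSA ended on leaving out either control library or either CSB library (adjusted p then reaching 0.113), with log2 fold changes of 0.42 to 0.67 over all alternatives, as are the ranges that follow. The call for CSB ended on leaving out the second CSB library (adjusted p then reaching 0.0514), with 0.86 to 0.98. That between the knockdowns ended on leaving out either control library or either CSB library (adjusted p then reaching 0.152), with 0.28 to 0.53. The WNT3 call for CSA ended on leaving out any 1 of the 6 libraries (adjusted p then reaching 0.182), with log2 fold changes of -0.52 to -0.36. For CSB the WNT3 call ended on leaving out either control library or the second CSB library (adjusted p then reaching 0.0525), with log2 fold changes of 0.67 to 0.88. The WNT5A fall ended on leaving out any 1 of the 6 libraries (adjusted p then reaching 0.177), with log2 fold changes of -0.79 to -0.49. The WNT5A difference between knockdowns ended on leaving out any 1 of the 6 libraries (adjusted p then reaching 0.247) and under TMM scaling, upper quartile scaling, library total scaling, DESeq2 size factor scaling, edgeR TMM on recovered reads, DESeq2 on recovered reads and a fit of only the 2 groups compared (reaching 0.285), with log2 fold changes of 0.28 to 0.59. The WNT5B rise ended on leaving out either control library, the second CSA library or either CSB library (adjusted p then reaching 0.25), with log2 fold changes of 0.41 to 0.72.

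The other 11 ligands were at the edge of detection, with no group mean above 14.6 scaled counts. WNT9A, recovered as 7 and 9 reads in control, 1 and 0 with the CSA hairpin and 13 and 8 with the CSB hairpin, fell after CSA knockdown (-2.60 ± 0.59, adjusted p = 0.00822) and was higher in the CSB than in the CSA knockdown (2.90 ± 0.59, adjusted p = 0.00242). The ratio of CSA to control was 0.0647, with an exact 95% interval of 0.00154 to 0.417 that covers counting error only. WNT11 had 6 and 7 reads in control, 0 and 7 with the CSA hairpin and 15 and 15 with the CSB hairpin, and differed between the knockdowns (2.47 ± 0.77, adjusted p = 0.0305). Its CSA libraries overlapped the control range. The WNT9A fall ended on leaving out either control library, the second CSA library or either CSB library (adjusted p then reaching 0.156). The WNT9A difference between knockdowns ended on leaving out the second CSA library or either CSB library (adjusted p then reaching 0.0874). The WNT11 difference ended on leaving out either control library, the first CSA library or either CSB library (adjusted p then reaching 0.361) and under no filter, DESeq2 on recovered reads and a fit of only the 2 groups compared (reaching 0.133). WNT7B had 2 and 7 reads in control and 0 in both CSA libraries, and its fall passed edgeR's threshold (adjusted p = 0.0363) but not limma's (adjusted p = 0.0523). WNT4, WNT8B, WNT10A, WNT10B and WNT16 passed no threshold. WNT1, WNT3A and WNT7A were too low to test, with at most 2 reads in a library.

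Of the R-spondins, ligands of the LGR receptors that keep Frizzled receptors at the cell surface, RSPO4 rose after CSB knockdown. RSPO4 had 64.7 and 37.6 scaled counts in control, 49.9 and 62.9 with the CSA hairpin, and 91.4 and 101 with the CSB hairpin, so both CSB libraries exceeded all others. The log2 fold change was 0.95 ± 0.24 (adjusted p = 0.0134) for CSB and 0.18 ± 0.24 (adjusted p = 0.686) for CSA, and CSB exceeded CSA (0.77 ± 0.24, adjusted p = 0.0319). The CSB call ended on leaving out the second control library, either CSA library or either CSB library (adjusted p then reaching 0.305). The difference between knockdowns ended on leaving out the first control library, either CSA library or either CSB library (adjusted p then reaching 0.364) and under no filter, TMM scaling, DESeq2 size factor scaling and DESeq2 on recovered reads (reaching 0.101). RSPO1 had 0 to 4 reads in every library and passed no threshold.

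Among the secreted antagonists, SFRP1, DKK1, DKK2, DKKL1 and SFRP4 rose after CSB knockdown, 5 of the 9 tested, and DKK2 and SFRP1 fell after CSA knockdown. Of all genes tested 14.8% rose after CSB knockdown and 10.4% fell after CSA knockdown. DKK2 (ENSG00000155011, chr4:106921802-107283806, minus strand), a Dickkopf protein that binds LRP5 and LRP6, had 954 and 897 scaled counts in control, 384 and 331 with the CSA hairpin, and 1760.5 and 1864 with the CSB hairpin. No library of 1 group overlapped another group. DKK2 fell after CSA knockdown (-1.37 ± 0.08, adjusted p = 2.05e-07) and rose after CSB knockdown (0.97 ± 0.08, adjusted p = 2.97e-06), and its mean was 5.07 times as high in the CSB as in the CSA knockdown (2.34 ± 0.08, adjusted p = 7.48e-10), the largest difference among the 34 well-covered members.

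SFRP1, a secreted protein that binds Wnts and shares the cysteine-rich domain of the Frizzled receptors, had 3194 and 3158 scaled counts in control, 2279 and 2395 with the CSA hairpin, and 7095 and 7295 with the CSB hairpin. It likewise fell with CSA (-0.44 ± 0.05, adjusted p = 4.79e-05) and rose with CSB (1.18 ± 0.05, adjusted p = 2.39e-08), with a ratio of 3.08 between the knockdowns (1.62 ± 0.05, adjusted p = 3.99e-10). DKK1, an LRP5 and LRP6 antagonist and a known beta-catenin target, had 1443 and 1467 scaled counts in control, 1367 and 1369 with the CSA hairpin, and 2766 and 2577 with the CSB hairpin. Its CSB libraries were far above the other 4, whereas its CSA libraries lay just below control (0.87 ± 0.05, adjusted p = 4.69e-07 for CSB, -0.09 ± 0.05, adjusted p = 0.315 for CSA, 0.96 ± 0.05, adjusted p = 6.55e-08 between the knockdowns). The calls of DKK2, SFRP1 and DKK1 held under each of the 19 alternatives tried, each single library left out included.

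DKKL1, a Dickkopf-like protein known from the testis, had 26.9 and 38.6 scaled counts in control, 26 and 23.8 with the CSA hairpin, and 61.7 and 62.7 with the CSB hairpin. It rose after CSB knockdown (0.93 ± 0.25, adjusted p = 0.0179). Its CSA libraries lay below both controls without passing the threshold (-0.36 ± 0.25, adjusted p = 0.39), and it was higher in the CSB than in the CSA knockdown (1.29 ± 0.25, adjusted p = 0.00181). SFRP4, a relative of SFRP1, had 44.8 and 35.7 scaled counts in control, 54.2 and 53.4 with the CSA hairpin, and 66.1 and 67.7 with the CSB hairpin. It rose after CSB knockdown (0.73 ± 0.20, adjusted p = 0.0197), and its CSA libraries, both above control, missed the threshold (0.42 ± 0.20, adjusted p = 0.189). The DKKL1 rise ended on leaving out any 1 of the 6 libraries (adjusted p then reaching 0.187) and under DESeq2 on recovered reads (reaching 0.0996). The DKKL1 difference between knockdowns ended on leaving out the second CSA library or either CSB library (adjusted p then reaching 0.0935). The SFRP4 rise ended on leaving out any 1 of the 6 libraries (adjusted p then reaching 0.153) and under DESeq2 on recovered reads (reaching 0.154).

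DKK3, a divergent Dickkopf that does not act on the co-receptors as DKK1 does, was the exception among the well-expressed antagonists. It had 1875 and 1835 scaled counts in control, 1968 and 1943 with the CSA hairpin, and 1856 and 1912 with the CSB hairpin, with the CSA libraries highest and the control and CSB libraries overlapping. Its log2 fold changes were 0.08 (95% interval -0.03 to 0.19, adjusted p = 0.357) for CSA and 0.02 (95% interval -0.09 to 0.13, adjusted p = 0.806) for CSB. The intervals are narrow against the changes of DKK1, DKK2 and SFRP1. SFRP2, SFRP5 and DKK4 had 0 to 4 reads in every library.

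The sequence upstream of the DKK1 start is shown because DKK1 is a known TCF/LEF target and its upstream sequence held 3 matches to the motif searched. It spans chr10:52314031-52314280 on the plus strand of GRCh38.p14 in RefSeq's table, and ends 1 base before RefSeq's start, which lies 15 bases from the deposited gene start. Capitals mark CTTTGA or CTTTGT on either strand (TCAAAG or ACAAAG as printed when on the other), a core that TCF/LEF factors can bind.
DKK1: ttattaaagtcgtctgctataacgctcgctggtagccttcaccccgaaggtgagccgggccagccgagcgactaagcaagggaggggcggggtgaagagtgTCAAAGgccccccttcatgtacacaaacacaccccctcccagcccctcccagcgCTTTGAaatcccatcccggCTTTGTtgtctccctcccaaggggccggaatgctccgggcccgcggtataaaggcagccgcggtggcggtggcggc
The matches began 149, 95 and 76 bases before the start. Of the 35 members with an entry, 4 held a match within 250 bases (DKK1, FZD1, RNF43 and WNT8B), which is 11.4%, and 22.8% of all 35116 upstream sequences in the table did. A match describes letters only.

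Frizzled receptors, the seven-pass receptors of Wnts, were split. After CSA knockdown 1 of the 9 tested rose and 4 fell, and after CSB knockdown 4 rose and 2 fell. This was 55.6% and 66.7% called, beside 18.8% and 23.6% of all genes tested and 31.5% and 39.5% of those with a mean of at least 20. FZD8 (chr10:35638249-35642278, minus strand) had 306 and 263 scaled counts in control, 152 and 156 with the CSA hairpin, and 716 and 711 with the CSB hairpin, with the groups far apart. It fell after CSA knockdown (-0.88 ± 0.09, adjusted p = 2.83e-05) and rose after CSB knockdown (1.33 ± 0.09, adjusted p = 1.08e-06), and its mean was 4.63 times as high in the CSB as in the CSA knockdown (2.20 ± 0.09, adjusted p = 4.86e-09). FZD1 (chr7:91264364-91271326, plus strand), a receptor of the beta-catenin branch, had 672 and 745 scaled counts in control, 455 and 531 with the CSA hairpin, and 1210.0 and 1308 with the CSB hairpin. It moved in the same directions as FZD8 in each knockdown, by -0.52 ± 0.08 (adjusted p = 0.000805) for CSA and 0.83 ± 0.08 (adjusted p = 2.01e-05) for CSB, and its libraries did not overlap between groups. Between the knockdowns FZD1 differed by 1.35 ± 0.08 (adjusted p = 1.44e-07).

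FZD2, the Frizzled transcript with the highest level per kb of gene length, had 929 and 895 scaled counts in control, 711 and 820.2 with the CSA hairpin, and 1572 and 1435 with the CSB hairpin. It rose after CSB knockdown (0.72 ± 0.08, adjusted p = 2.67e-05) and fell slightly after CSA knockdown (-0.26 ± 0.08, adjusted p = 0.0338), with 0.97 ± 0.08 (adjusted p = 9.66e-07) between the knockdowns. FZD7, its close relative, had 888 and 875 scaled counts in control, 825 and 948 with the CSA hairpin, and 1318 and 1399 with the CSB hairpin. It rose after CSB knockdown (0.62 ± 0.07, adjusted p = 5.21e-05), its CSA libraries lay on both sides of the controls (0.00 ± 0.07, adjusted p = 0.996), and the knockdowns differed (0.62 ± 0.07, adjusted p = 2.95e-05).

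FZD6 and FZD3 were the Frizzled genes that fell after CSB knockdown. FZD6, a receptor tied to planar cell polarity, had 307 and 320.2 scaled counts in control, 489.9 and 419 with the CSA hairpin, and 261 and 247 with the CSB hairpin. It was the only Frizzled gene to rise after CSA knockdown (0.53 ± 0.09, adjusted p = 0.00154). It fell after CSB knockdown (-0.31 ± 0.09, adjusted p = 0.0323) and the knockdowns differed (-0.83 ± 0.09, adjusted p = 2.18e-05). FZD3, which acts in axon guidance and planar polarity, had 1033 and 1064 scaled counts in control, 1089 and 1025 with the CSA hairpin, and 863 and 951 with the CSB hairpin. It fell after CSB knockdown (-0.21 ± 0.07, adjusted p = 0.0361), was lower in the CSB than in the CSA knockdown (-0.22 ± 0.07, adjusted p = 0.0229), and gave 0.01 ± 0.07 (adjusted p = 0.946) for CSA against control.

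FZD4, the receptor of Norrin as well as of Wnts, had 257 and 249 scaled counts in control, 111 and 105 with the CSA hairpin, and 216 and 212 with the CSB hairpin. FZD4 fell after CSA knockdown (-1.22 ± 0.10, adjusted p = 5.28e-06) and was higher in the CSB than in the CSA knockdown (0.98 ± 0.10, adjusted p = 1.26e-05), while CSB against control gave -0.24 ± 0.10 (adjusted p = 0.123). Its exons overlap those of PRSS23 on the other strand, a gene with more reads whose log2 fold change was -1.33 ± 0.09 (adjusted p = 7.29e-07) after CSA knockdown and 0.15 ± 0.09 (adjusted p = 0.252) after CSB knockdown. The strand setting is not stated, so reads of the 2 genes may not be separated and the fall of FZD4 is uncertain. FZD5 had 126 and 90.7 scaled counts in control, 101 and 67.7 with the CSA hairpin, and 82.6 and 79.2 with the CSB hairpin. FZD9 had 152 and 144 scaled counts in control, 134 and 164 with the CSA hairpin, and 169.6 and 197 with the CSB hairpin. Neither passed limma's threshold. With edgeR and TMM on recovered reads FZD4 (log2 fold change -0.31, adjusted p = 0.0242) and FZD5 (log2 fold change -0.50, adjusted p = 0.024) fell after CSB knockdown. FZD10 was too low to test, with at most 2 reads in a library.

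The FZD8 and FZD4 calls held under each alternative tried, and so did the differences of FZD1, FZD2 and FZD6 between the knockdowns. The FZD1 fall ended on leaving out either control library, the first CSA library or either CSB library (adjusted p then reaching 0.123). Its rise ended on leaving out either CSB library (adjusted p then reaching 0.0721). The FZD2 fall ended on leaving out any 1 of the 6 libraries (adjusted p then reaching 0.33) and under no filter, TMM scaling and a fit of only the 2 groups compared (reaching 0.0712). Its rise ended on leaving out either CSB library (adjusted p then reaching 0.0546). The FZD6 rise ended on leaving out either control library or either CSB library (adjusted p then reaching 0.115). Its fall ended on leaving out either control library or either CSB library (adjusted p then reaching 0.283). The FZD7 rise ended on leaving out the first control library or either CSB library (adjusted p then reaching 0.0744). Its difference between knockdowns ended on leaving out the second CSB library (adjusted p then reaching 0.0558). The FZD3 fall ended on leaving out any 1 of the 6 libraries (adjusted p then reaching 0.259) and under no filter (reaching 0.051). Its difference ended on leaving out any 1 of the 6 libraries (adjusted p then reaching 0.184).

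The upstream sequences of FZD1 and FZD8 are shown because both receptors fell with CSA and rose with CSB while only the first holds the motif of the DKK1 paragraph, again in capitals. They span chr7:91264183-91264432 on the plus strand and chr10:35642297-35642546 on the minus strand, from RefSeq on GRCh38.p14.
FZD1: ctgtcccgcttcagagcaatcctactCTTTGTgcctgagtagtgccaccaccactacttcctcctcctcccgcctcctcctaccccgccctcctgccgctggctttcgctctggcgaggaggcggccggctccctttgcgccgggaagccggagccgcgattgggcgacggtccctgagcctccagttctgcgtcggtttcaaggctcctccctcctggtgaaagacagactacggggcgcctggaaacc
FZD8: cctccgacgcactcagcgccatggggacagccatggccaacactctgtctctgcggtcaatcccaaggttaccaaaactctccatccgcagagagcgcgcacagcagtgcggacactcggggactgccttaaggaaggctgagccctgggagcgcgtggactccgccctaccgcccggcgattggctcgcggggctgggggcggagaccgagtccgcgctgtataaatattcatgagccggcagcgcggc
The match of FZD1 began 224 bases before the start, and FZD8 held none of these letters in its 250 bases. RefSeq's starts lie 69 and 18 bases from the deposited starts.

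Of the co-receptors that pass the Wnt signal to Axin, LRP5 rose after CSB knockdown and LRP6 fell after CSA knockdown, and whether the 2 genes differ in response was not tested. LRP5 had 2836 and 2715 scaled counts in control, 2397 and 2832 with the CSA hairpin, and 3828 and 3906 with the CSB hairpin. It rose after CSB knockdown (0.48 ± 0.07, adjusted p = 0.000317), with both CSB libraries above all others, and its CSA libraries reached into the control range (-0.09 ± 0.07, adjusted p = 0.436). LRP6 had 1901 and 1916 scaled counts in control, 1486 and 1484 with the CSA hairpin, and 1680.1 and 1821 with the CSB hairpin. It fell after CSA knockdown (-0.36 ± 0.06, adjusted p = 0.000587), and its CSB libraries, below control and above CSA, gave -0.13 ± 0.06 (adjusted p = 0.134) against control and 0.24 ± 0.06 (adjusted p = 0.0062) against CSA. edgeR with TMM on recovered reads called LRP6 lower after CSB knockdown (log2 fold change -0.19, adjusted p = 0.0125). LRP5 was also higher in the CSB than in the CSA knockdown (0.57 ± 0.07, adjusted p = 4.79e-05). The LRP5 rise ended on leaving out either control library or either CSB library (adjusted p then reaching 0.138). Its difference between knockdowns ended on leaving out either CSB library (adjusted p then reaching 0.0837). The LRP6 fall ended on leaving out either control library or the second CSA library (adjusted p then reaching 0.074). Its difference ended on leaving out either control library or either CSA library (adjusted p then reaching 0.0843) and under TMM scaling, DESeq2 size factor scaling, edgeR TMM on recovered reads and DESeq2 on recovered reads (reaching 0.117).

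LGR5, an R-spondin receptor known as a marker of intestinal stem cells and as a beta-catenin target, had the highest control level per kb of all 52 members. It had 5392 and 5281 scaled counts in control, 4779 and 4349 with the CSA hairpin, and 6133 and 6240.4 with the CSB hairpin (chr12:71439770-71586310, plus strand). The groups did not overlap, but the changes were small, -0.23 ± 0.05 (adjusted p = 0.0106) for CSA, 0.21 ± 0.05 (adjusted p = 0.0122) for CSB and 0.44 ± 0.05 (adjusted p = 4.78e-05) between the knockdowns. The CSA call ended on leaving out either control library, the second CSA library or either CSB library (adjusted p then reaching 0.208). The CSB call ended on leaving out either control library or either CSB library (adjusted p then reaching 0.216) and under TMM scaling, library total scaling, DESeq2 size factor scaling, edgeR TMM on recovered reads and DESeq2 on recovered reads (reaching 0.128). The difference between knockdowns ended on leaving out the second CSB library (adjusted p then reaching 0.0522). LGR4, the broadly expressed relative, had 287 and 279 scaled counts in control, 302 and 276 with the CSA hairpin, and 293 and 295 with the CSB hairpin. Its log2 fold changes were 0.03 (95% interval -0.16 to 0.22, adjusted p = 0.873) for CSA and 0.05 (95% interval -0.14 to 0.24, adjusted p = 0.726) for CSB. LGR6 had 0 to 4 reads in each library and passed no threshold.

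Among the feedback inhibitors, 0 of the 6 tested passed limma's threshold after CSA knockdown, and 0 did at an unadjusted p under 0.05, by edgeR or by DESeq2. Of all genes tested 18.8% were called after CSA knockdown, and of those with a mean of at least 20 scaled counts 31.5%. Whether 0 of 6 differs from these shares was not tested. RNF43 and NKD2, among the 6, were low in control and in the CSA knockdown, so depth limits their calls. AXIN1 rose after CSB knockdown. AXIN2, which beta-catenin induces and whose protein belongs to the destruction complex, had 357 and 374 scaled counts in control, 352 and 347 with the CSA hairpin, and 297 and 346 with the CSB hairpin, so the groups lay next to each other without overlap. Its log2 fold changes were -0.06 (95% interval -0.26 to 0.13, adjusted p = 0.695) for CSA and -0.19 (95% interval -0.39 to 0.01, adjusted p = 0.164) for CSB, and between the knockdowns -0.13 (95% interval -0.32 to 0.07, adjusted p = 0.349). By edgeR with TMM on recovered reads AXIN2 fell after CSB knockdown (log2 fold change -0.25, adjusted p = 0.0437). NKD1, a target that binds Dishevelled, had 275 and 260.4 scaled counts in control, 279.6 and 279 with the CSA hairpin, and 286 and 283 with the CSB hairpin. Its libraries also did not overlap between groups, with changes of 0.06 (95% interval -0.12 to 0.25, adjusted p = 0.679) for CSA and 0.09 (95% interval -0.10 to 0.28, adjusted p = 0.513) for CSB. ZNRF3, a ubiquitin ligase that removes Frizzled receptors from the surface, had 885 and 856 scaled counts in control, 823 and 823 with the CSA hairpin, and 881 and 894 with the CSB hairpin. Its CSA libraries were below control and its CSB libraries overlapped control, with changes of -0.08 (95% interval -0.21 to 0.05, adjusted p = 0.407) for CSA and 0.03 (95% interval -0.10 to 0.16, adjusted p = 0.788) for CSB.

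AXIN1, the constitutive scaffold of the destruction complex, had 1291 and 1162 scaled counts in control, 993 and 1213 with the CSA hairpin, and 1545 and 1488 with the CSB hairpin. Both CSB libraries lay above the others (log2 fold change 0.31 ± 0.09, adjusted p = 0.0215 against control, 0.47 ± 0.09, adjusted p = 0.00123 against CSA), and CSA against control gave -0.16 ± 0.09 (adjusted p = 0.253). NKD2 had 6.96 and 15.4 scaled counts in control, 3.25 and 10.5 with the CSA hairpin, and 30.8 and 23.1 with the CSB hairpin. It differed between the knockdowns (1.99 ± 0.53, adjusted p = 0.0132), whereas it missed the threshold against control (-0.71 ± 0.53, adjusted p = 0.422 for CSA, 1.28 ± 0.53, adjusted p = 0.112 for CSB). With edgeR and TMM on recovered reads it rose after CSB knockdown (log2 fold change 1.16, adjusted p = 0.0189). RNF43, the paralog of ZNRF3, had at most 2 reads in a library and passed no threshold, and its exons overlap those of the much more abundant SUPT4H1. The AXIN1 rise ended on leaving out either control library, the second CSA library or either CSB library (adjusted p then reaching 0.348) and under TMM scaling, DESeq2 size factor scaling and DESeq2 on recovered reads (reaching 0.09). The AXIN1 difference between knockdowns ended on leaving out the first control library, the first CSA library or either CSB library (adjusted p then reaching 0.163). The NKD2 difference ended on leaving out any 1 of the 6 libraries (adjusted p then reaching 0.268).

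All 4 TCF/LEF factors, the DNA-binding partners of beta-catenin, fell after CSA knockdown and rose after CSB knockdown. Of all genes with a mean of at least 20 scaled counts, 17.5% fell after CSA knockdown and 24.6% rose after CSB knockdown. By DESeq2 on recovered reads all 4 fell after CSA knockdown, but only LEF1 and TCF7L1 rose after CSB knockdown. TCF7L1, which acts mainly as a repressor, had 350.1 and 323 scaled counts in control, 210.3 and 229 with the CSA hairpin, and 641 and 711 with the CSB hairpin (chr2:85133410-85310388, plus strand). It fell for CSA (-0.61 ± 0.09, adjusted p = 0.000341) and rose for CSB (1.00 ± 0.09, adjusted p = 6.52e-06), a ratio of 3.08 between the knockdowns (1.62 ± 0.09, adjusted p = 4.79e-08). TCF7L2 had 625 and 637 scaled counts in control, 378 and 408 with the CSA hairpin, and 796 and 787 with the CSB hairpin. Its log2 fold changes were -0.68 ± 0.07 (adjusted p = 2.05e-05) for CSA and 0.33 ± 0.07 (adjusted p = 0.00381) for CSB. The libraries of each factor formed 3 groups in the order CSA, control, CSB with no overlap. The share of all genes so separated was not taken, and AXIN2 and NKD1 also showed no overlap without passing limma's threshold.

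LEF1, an activating partner of beta-catenin and a known target of it, had 555 and 517 scaled counts in control, 397 and 351 with the CSA hairpin, and 687 and 749 with the CSB hairpin. Its log2 fold changes were -0.52 ± 0.08 (adjusted p = 0.000727) for CSA and 0.42 ± 0.08 (adjusted p = 0.00257) for CSB. TCF7, known for its part in T cells, had 875 and 831 scaled counts in control, 688 and 670.4 with the CSA hairpin, and 972 and 1015 with the CSB hairpin. Its log2 fold changes were -0.33 ± 0.06 (adjusted p = 0.00243) for CSA and 0.22 ± 0.06 (adjusted p = 0.0219) for CSB. TCF7 shares exon sequence with SKP1 on the other strand, which had more reads and gave 0.04 ± 0.06 (adjusted p = 0.695) and -0.06 ± 0.06 (adjusted p = 0.543). LEF1, FZD6 and DKK1 also overlap antisense genes, whose maxima were 8.24%, 6.64% and 3.03% of theirs. Between the knockdowns, TCF7L2 (1.01 ± 0.07, adjusted p = 2.92e-07), LEF1 (0.94 ± 0.08, adjusted p = 2.74e-06) and TCF7 (0.55 ± 0.06, adjusted p = 2.4e-05) also differed.

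Of the TCF/LEF calls, the 4 differences between knockdowns, the TCF7L2 fall and the TCF7L1 rise held under each alternative tried. The TCF7L1 fall ended on leaving out the first control library (adjusted p then reaching 0.0763). The TCF7L2 rise ended on leaving out either control library or either CSB library (adjusted p then reaching 0.0895) and under DESeq2 on recovered reads (reaching 0.0765). The LEF1 fall ended on leaving out either control library, the second CSA library or either CSB library (adjusted p then reaching 0.11). Its rise ended on leaving out either control library or either CSB library (adjusted p then reaching 0.158). The TCF7 fall ended on leaving out either control library or the second CSA library (adjusted p then reaching 0.0895). Its rise ended on leaving out either control library, the second CSA library or either CSB library (adjusted p then reaching 0.166) and under TMM scaling, upper quartile scaling, library total scaling, DESeq2 size factor scaling, edgeR TMM on recovered reads and DESeq2 on recovered reads (reaching 0.309).

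**Figure D2:**
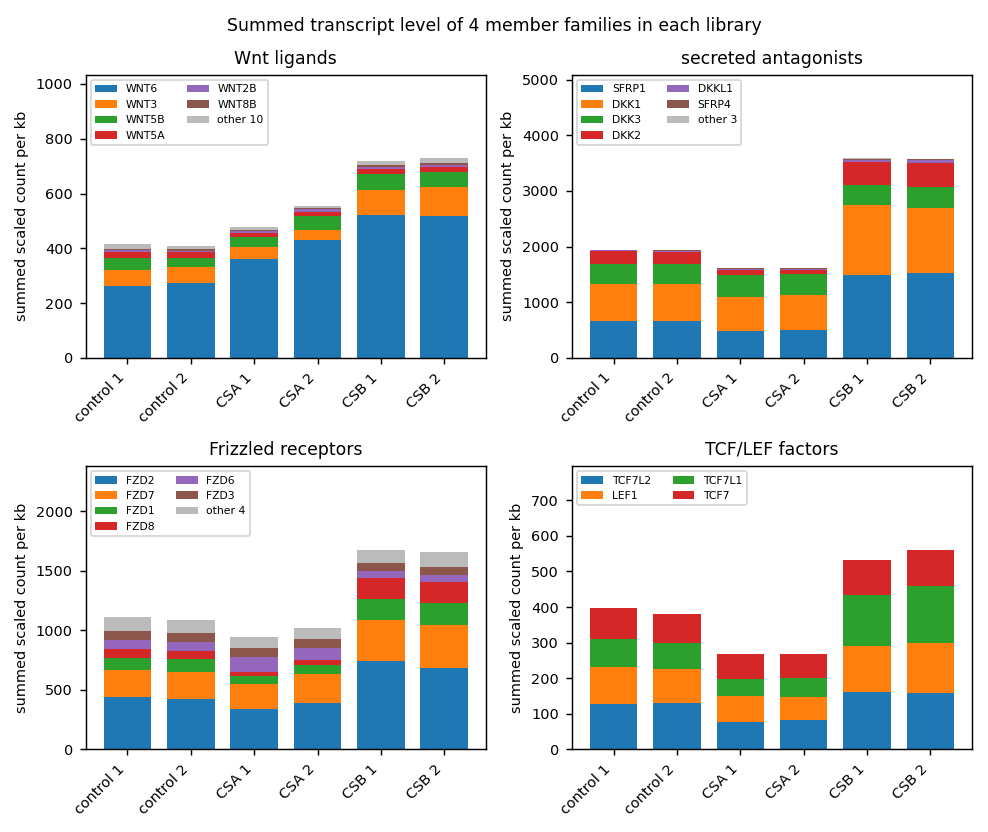
Stacked bars give the summed scaled count per kb of gene length in each of the 6 libraries for 4 member families, with the leading genes of each family in colour and the rest in grey. The antagonist sum was 1942 per kb in control, 1614 in the CSA knockdown and 3578 in the CSB knockdown, and SFRP1 and DKK1 fill most of each bar.

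Levels can be compared between genes only per kb of gene length, and on that scale a few members carried most of the signal. LGR5 led in control and in the CSA knockdown, with 1016 and 869 scaled counts per kb, and SFRP1 led in the CSB knockdown with 1511 against 1178 for LGR5. DKK1 had 660 per kb in control, 620 in the CSA knockdown and 1211 in the CSB knockdown. Among the receptors FZD2 (432, 362 and 712 per kb) and LRP5 (450, 424 and 627) were the most abundant of their families. DKK3 stayed at 367, 387 and 372 per kb, and DKK2 ran from 82.7 in the CSA knockdown to 420 in the CSB knockdown.

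**Figure D3:**
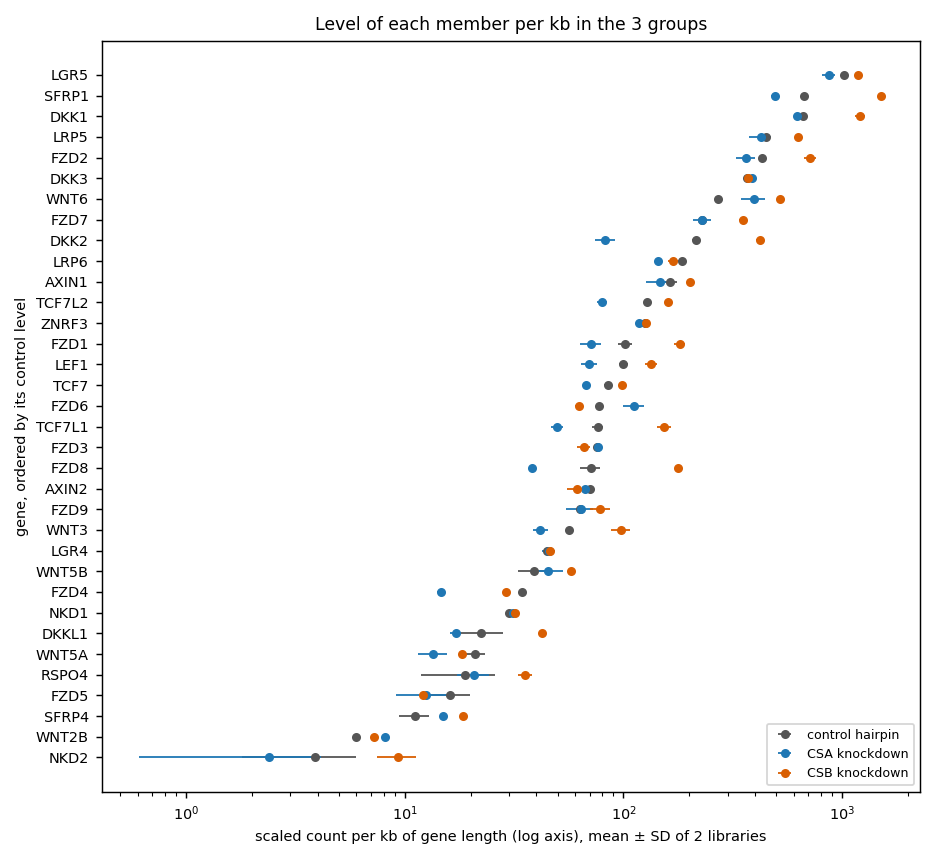
Scaled counts per kb of gene length on a log axis, as the mean ± SD of 2 libraries per group, for the same 34 members ordered by their control level. LGR5, SFRP1 and DKK1 head the order in control, SFRP1 is highest in the CSB knockdown, and the groups stand wide apart for DKK2, FZD8 and SFRP1.

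The rest of the pathway was read from 5 lists holding 109 genes that the member rule leaves out, of which 98 were tested. After CSA knockdown 16 rose and 34 fell, and after CSB knockdown 45 rose and 8 fell, with medians of -0.05 and 0.19. These are 51.0% and 54.1% called, where 18.8% and 23.6% of all genes tested were called and 31.5% and 39.5% of those with a mean of at least 20. The lists, like the members, were chosen with earlier results of these data known, so their shares are not independent of those results. Target genes outside the members fell in 10 of 15 cases and rose in 1 after CSA knockdown (median -0.83), and rose in 8 and fell in 1 after CSB knockdown (median 0.53). Secretion and extracellular modulators gave 2 rising and 10 falling of 20 for CSA (median -0.35) and 8 rising and 1 falling for CSB (median 0.23). Cytoplasmic transduction genes were balanced for CSA, with 7 rising and 6 falling of 29, and gave 14 rising and 3 falling for CSB. Nuclear cofactors gave 3 rising and 3 falling of 15 for CSA and 5 rising and 2 falling for CSB. Those shares of 40.0% and 46.7% lay near the 31.5% and 39.5% of genes with a mean of at least 20. Co-receptor and planar polarity genes gave 3 rising and 5 falling of 19 for CSA and 10 rising and 1 falling for CSB.

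Among the targets, MSX2, a homeobox factor of the neural crest, had 515 and 547 scaled counts in control, 111 and 107 with the CSA hairpin, and 938 and 879 with the CSB hairpin. It fell after CSA knockdown (-2.28 ± 0.08, adjusted p = 6.84e-09) and rose after CSB knockdown (0.77 ± 0.08, adjusted p = 2.17e-05). ID2, an inhibitor of basic helix-loop-helix factors, moved likewise (-0.90 ± 0.07, adjusted p = 2.36e-06 and 0.84 ± 0.07, adjusted p = 3.76e-06). SOX4 and TBX3, both transcription factors, rose after CSB knockdown (0.95 ± 0.06, adjusted p = 5.37e-07 and 0.86 ± 0.05, adjusted p = 1.93e-07). TNFRSF19, a receptor of the TNF family, had 100.5 and 81 scaled counts in control, 154 and 135 with the CSA hairpin, and 44 and 47 with the CSB hairpin. It went against the list, with a rise after CSA knockdown (0.67 ± 0.17, adjusted p = 0.0136) and a fall after CSB knockdown (-0.97 ± 0.17, adjusted p = 0.00103). CCND1, the cyclin D1 gene, fell after CSA knockdown (-0.64 ± 0.05, adjusted p = 2.86e-06). CD44, a target that is also among the mesenchymal markers above, rose after CSB knockdown (1.33 ± 0.11, adjusted p = 4.59e-06). SOX4, TBX3 and CD44 were also called lower after CSA knockdown. Their log2 fold changes there were -0.28 to -0.12, -0.34 to -0.30 and -0.81 to -0.58 over all alternatives. CCND1 was also called higher after CSB knockdown, with 0.09 to 0.22. None of these further calls held under every library omission. The TNFRSF19 rise ended on leaving out any 1 of the 6 libraries (adjusted p then reaching 0.161). Its fall ended on leaving out the first control library or either CSB library (adjusted p then reaching 0.0853).

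Of the extracellular modulators, GPC3, a glypican that binds Wnts at the cell surface, had 835 and 837 scaled counts in control, 225 and 222 with the CSA hairpin, and 1388 and 1369 with the CSB hairpin. GPC3 fell after CSA knockdown (-1.90 ± 0.06, adjusted p = 5.8e-09) and rose after CSB knockdown (0.72 ± 0.06, adjusted p = 6.02e-06). GPC4, a related glypican, had 159 and 142 scaled counts in control, 48.8 and 37.2 with the CSA hairpin, and 121 and 132 with the CSB hairpin. It fell after CSA knockdown (-1.79 ± 0.17, adjusted p = 1.15e-05), with -0.25 ± 0.17 (adjusted p = 0.345) for CSB. LYPD6, an LRP6-binding enhancer of the signal, also fell after CSA knockdown (-1.10 ± 0.07, adjusted p = 8.09e-07). Its rise after CSB knockdown, with log2 fold changes of 0.37 to 0.49 over all alternatives, did not hold under every library omission. The polarity gene PRICKLE1 fell after CSA knockdown (-1.30 ± 0.07, adjusted p = 2.39e-07), and CELSR3, a polarity cadherin, rose (0.61 ± 0.05, adjusted p = 9.5e-06). PRICKLE1 and CELSR3 were also both called higher after CSB knockdown, with log2 fold changes of 0.18 to 0.33 and 0.30 to 0.43 over all alternatives. Neither of these CSB calls held under every library omission. Of the co-repressors that bind TCF/LEF factors, TLE1 fell after CSA knockdown (-0.53 ± 0.06, adjusted p = 3.97e-05) and TLE3 rose after CSB knockdown (0.66 ± 0.06, adjusted p = 6.55e-06). The TLE3 fall after CSA knockdown and the TLE1 rise after CSB knockdown did not hold under every library omission. TLE2 was not called after CSA knockdown, and the nuclear cofactors were balanced there, with 3 rising and 3 falling. TNIK, a kinase of the TCF complex, fell after CSB knockdown (-0.66 ± 0.07, adjusted p = 2.99e-05). It was also called higher after CSA knockdown, with log2 fold changes of 0.23 to 0.34 over all alternatives, but not under every library omission. CTNNB1, which encodes beta-catenin and was picked after its values were seen, had 7456 and 7573 scaled counts in control, 7043 and 7007 with the CSA hairpin, and 6146 and 6303 with the CSB hairpin. It fell slightly after CSB knockdown (-0.27 ± 0.05, adjusted p = 0.000941) and gave -0.10 ± 0.05 (adjusted p = 0.184) for CSA. The CSB call did not last on leaving out either control library or the first CSB library (adjusted p then reaching 0.0642).

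**Figure D4:**
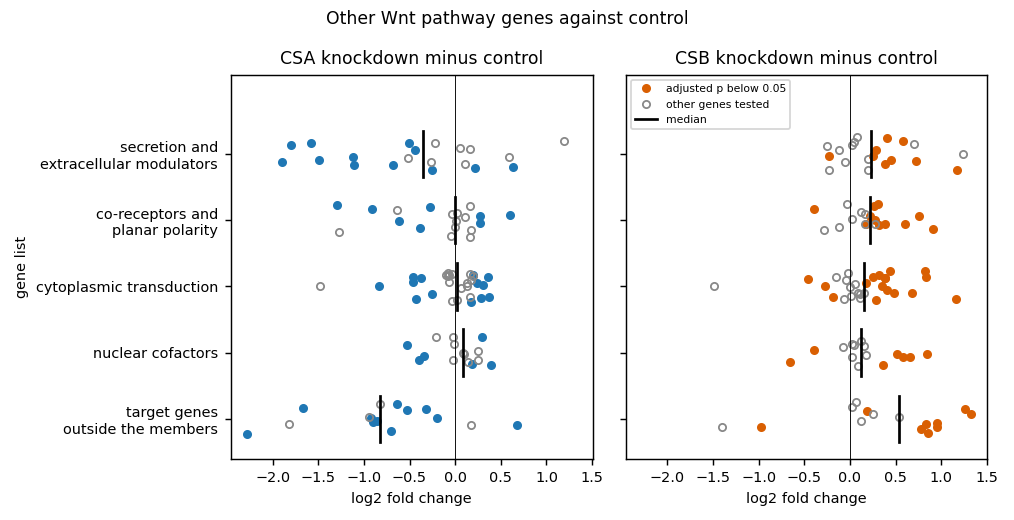
Log2 fold changes against control for the 98 tested genes of the 5 other Wnt pathway lists, with filled points for an adjusted p below 0.05, open points for the other genes and a black bar at each list's median. The target list lies furthest from 0 in both panels, with medians of -0.83 after CSA knockdown and 0.53 after CSB knockdown. It holds 15 tested genes of 22 and leaves out the targets among the members. Whether its medians reflect Wnt signalling was not tested.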

How the data were processed

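Messenger RNA libraries of 6 SH-SY5Y samples were made with a TruSeq kit from total RNA and sequenced in paired-end mode on an Illumina HiSeq, per the labels' protocols and series design. Per the submitters' processing notes, HISAT2 2.0.4, FastQC and hg38 were used. How reads were counted, on which strand and with which annotation, is not stated there. The deposited columns carry the name FPKM in the file headers, but hold a signal of gene reads divided by 1 size factor per library, called the scaled count here. In each library 100% of values equalled a whole number of steps, the step being the lowest value (tolerance 0.01 of it), which recovers the reads. edgeR (4.0.16) with TMM on those reads called 6119 genes for CSA, 7268 for CSB and 8931 between the knockdowns. A gene without an entry in a library was taken as 0.

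Genes averaging 1 scaled count or more in a group were fitted with limma (3.58.1, R 4.3.3, trend) on log2(scaled count + 1) with 3 residual degrees of freedom, and Benjamini-Hochberg adjusted p-values were taken over all of them at a threshold of 0.05. The scripts were tested on simulated data with known changes in 200 genes and the same dispersion for every gene and group. That test checks the code only, since the spread of the real groups was unequal. Replicates of each group differed by more than sampling noise (chi-square per degree of freedom 1.95 to 5.06). Pseudocounts, filters, scalings, edgeR and DESeq2 (1.42.0) on recovered reads, left-out libraries, a fit of only the groups compared and a replicate block were the alternatives.

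The members and lists were chosen with earlier results of these data known. Members past the threshold with a mean of at least 20 scaled counts in a group are given in full, others by ranges or reads. Genes of the other pathway lists were named from those past the threshold with an absolute log2 fold change of at least 0.58 in a comparison with control. Exon overlaps came from GENCODE release 29, in which all 52 members were found, 14 of them sharing exon sequence with another gene. Upstream sequences came from RefSeq, where 35 members matched by symbol.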

Additional observations from a re-analysis of the deposited data

How the results depend on the processing

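Of 65 calls of named members, 23 held under all 19 alternatives, 42 ended on the omission of at least 1 library and 12 under another setting, and none reversed. The count of members falling after CSB knockdown moved from 2 to 1 with no filter, 4 with TMM scaling, 5 with DESeq2's size factors, 6 with edgeR and TMM and 5 with edgeR and upper quartile scaling. With the full DESeq2 fit on recovered reads it was 3, and the count rising was 14 in place of 20. Leaving out 1 library gave 5 to 11 members falling (from 15) and 0 to 2 rising after CSA knockdown, 6 to 17 rising (from 20) and 0 to 1 falling after CSB knockdown, and 15 to 19 higher (from 24) and 1 lower between the knockdowns. For the other pathway genes the same omissions gave 15 to 34 calls (from 50) for CSA, 13 to 49 (from 53) for CSB and 36 to 52 (from 60) between the knockdowns. Such a fit has fewer libraries, and a group left with 1 library is assumed to vary like the others. Same-numbered libraries did not deviate together (correlations of -0.0402, -0.0323 and -0.0316 over 13397 genes), so the numbers do not pair them. With the replicate block the member counts stayed at 2 rising and 15 falling for CSA, 20 and 2 for CSB and 24 and 2 between the knockdowns, and the other pathway calls were 49, 51 and 60. For the members under a mean of 20 scaled counts depth limits what can be called, and WNT9A and WNT11 were the only calls among them.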

Other observations

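The summed Wnt ligand level was 412 ± 3.39 scaled counts per kb of gene length in control, 516 ± 55.4 in the CSA knockdown and 724 ± 5.54 in the CSB knockdown (SD, n = 2 libraries). WNT6 gave 65.4%, 76.4% and 71.9% of it, and WNT3 gave 13.7%, 8.17% and 13.4%. Secreted antagonists summed to 1942 ± 6.85, 1614 ± 4.63 and 3578 ± 9.33 per kb, and SFRP1 took 34.3%, 30.4% and 42.2% of them. The share of DKK1 was 34.0%, 38.4% and 33.8%, and that of DKK3 was 18.9%, 23.9% and 10.4%. The antagonist total stood above the ligand total in every group, by per-kb sums that say nothing of protein.

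Frizzled receptors summed to 1100.0 ± 17.2 per kb in control, 981 ± 56.9 in the CSA knockdown and 1669.7 ± 11.9 in the CSB knockdown. FZD2 supplied 39.3%, 36.9% and 42.6%, FZD8 supplied 6.42%, 3.90% and 10.6%, and FZD6 supplied 7.02%, 11.5% and 3.74%, so FZD6 stood above FZD8 in the CSA knockdown and below it in the CSB knockdown. TCF/LEF factors summed to 389 ± 10.7, 267 ± 0.0275 and 546 ± 21.2 per kb, and TCF7L1 made up 19.6%, 18.7% and 28.0%. Feedback inhibitors summed to 393 ± 12.1, 366 ± 21.7 and 433 ± 0.524 per kb. These sums and shares were not tested.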
